A study of Apis mellifera carnica with 38 samples.

Results

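Brains of honey bee queens injected with seminal fluid (SF) were compared with brains of queens injected with Hayes solution (HS), the saline in which the semen had been diluted. The 8 libraries of this comparison, 3 from SF and 5 from HS queens, were taken by their labels from the 38 libraries of the series, of which 18 are brains. All were *Apis mellifera carnica* queens, sisters reared from larvae of 1 colony headed by a queen inseminated with a single drone, and none had mated. About a week after emergence, each queen had a wing clipped, was injected without anaesthetic into the hemocoel through the abdomen, and went back to a small mating colony until collection the day after a test of worker attraction, held 5 days after injection. HS queens received Hayes solution alone. SF queens received the same volume of supernatant from *A. m. ligustica* drone semen that had been diluted with an equal part of Hayes solution and centrifuged to pellet the sperm, so that both groups carried the saline and differed in the seminal fluid. Each library was made from the brain of 1 queen, dissected from a partly freeze-dried head. Uninjected virgin queens (V, 5 brains) from the same rearing are given beside the comparison, and 4 brains of semen-injected queens (SE) entered the model only to estimate the spread between libraries. All groups carried Deformed Wing Virus (DWV) to differing degrees, and infection was not a treatment.

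Seminal fluid is the part of the ejaculate without sperm, made by the accessory glands and other reproductive tissues of the male. In *Drosophila*, proteins of the seminal fluid cross into the hemolymph of the female and change her egg laying, feeding and receptivity, in part through a receptor in neurons, the sex peptide receptor. A honey bee queen mates on a few flights early in life and afterwards stays in the nest and lays eggs, a transition accompanied by changes in her brain, ovaries, fat body and pheromones. The question of the comparison is which brain transcripts differ when seminal fluid reaches the hemocoel without sperm and without mating.

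The 8 brain libraries held from 8699477 (H51) to 17368130 (SP16) counted reads. The SF brain SP16 stood apart: 6.08% of its reads had no alignment to the bee genome, against 38.9% in SP1 and 39.7% in SP76 and 22.1% to 53.6% in the 5 HS brains. The reads that were not aligned hold the viral reads and any others foreign to the bee genome. The paper set SP16 aside for its low share of viral reads, and the SF values below are those of SP1 and SP76, with SP16 given apart for each gene. The study lists bee alignment rates for SP1 and SP16 the other way round from the deposited counts, but viral shares the same way, and the labels of the counts were followed. Among the HS brains, H51 had both the highest share not aligned (53.6%) and the fewest reads on genes of counted reads. The 8 libraries were sequenced on 6 lanes, and only lane 7 held libraries of both groups (SP1, H51 and H53). Apart from lane 3, the other lanes of this comparison were linked only through SE brains. H73 was the only fitted brain of lane 3, so it adds nothing to the comparison when lane is a covariate. Results with lane as a covariate and within lane 7 are given below.

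Markers of neurons and glia were abundant in each brain. The summed level of 6 neuronal genes was 2166 to 2351 CPM (counts scaled to library size, with library sizes normalized by the trimmed mean of M-values, TMM) in HS brains, 2068 and 2154 in SP1 and SP76 and 2179 in SP16. That of 3 glial genes was 4548 to 4999.9 CPM in HS, 4364 and 4459 in SP1 and SP76 and 3426 in SP16, the lowest of the 8. The summed level of 5 fat body genes, most of it vitellogenin, was 1160 to 8941 CPM in HS brains, 9660 and 10503 in SP1 and SP76 and 4298 in SP16, and none of the 5 was at 0 throughout a group. That of 2 hemocyte genes (*PPO* and *Tg*) was 74.4 to 109.8 CPM in HS, 147.2 and 156.1 in SP1 and SP76 and 79.3 in SP16. The 7 troponin genes summed to 29.7 to 333.3 CPM in HS brains, 136.1 and 766.1 in SP1 and SP76 and 113.4 in SP16, with *TpnCIIb* and *TpnT* at 0 in all of them. The sums of SP1 and SP76 thus lay above the HS range for fat body and hemocyte genes and within or above it for muscle genes. The sums of SP16 lay within the HS range for all 3 lists. Gene by gene, SP1 and SP76 both lay above the HS range for 2 of the 4 fat body genes tested and 0 of the 2 hemocyte genes. None of these fat body and hemocyte genes was called. Of 9 genes of the head glands, the summed level was 36.7 to 451.7 CPM in HS, 72.2 and 77.6 in SP1 and SP76 and 49.6 in SP16. The 6 venom gland genes summed to 95.1 to 204.2 CPM in HS, 174.9 to 209.3 in SP1 and SP76 and 97.3 in SP16. Of these, *Melt*, *Apamin*, *Pla2* and *Acph-1* were at 0 in all 8 brains. For 4 retina genes the sums were 277.1 to 495.2 CPM in HS, 450.4 to 645.6 in SP1 and SP76 and 524.4 in SP16, with *Blop* at 0. Whether these tissues contributed to the differences described below was not tested, and in whole brains a change in the number of cells of a type and a change in transcripts per cell cannot be told apart.

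In SP1 and SP76 together, 716 of the 9030 genes tested (7.93%) differed from HS brains at an adjusted p under 0.05 (differentially expressed genes, DEGs), 404 of them higher (4.47%) and 312 lower (3.46%), and 2435 genes had an unadjusted p under 0.05. The changes were mostly small: the median size of the log2 fold change was 0.44 among higher and 0.42 among lower DEGs, and it exceeded 1 in 71 and 27 of them. Of the higher DEGs 394 were protein-coding, 8 were long non-coding RNAs and 2 were microRNA genes, and of the lower DEGs 275 were protein-coding and 36 were long non-coding RNAs. Long non-coding RNAs made up 11.5% of the lower and 1.98% of the higher DEGs, against 5.42% of all genes tested. The levels in SP1 and SP76 both lay above the HS range for 394 of the higher DEGs and both below it for all 312 lower DEGs, while 15.3% and 15.6% of all genes tested did so. Scaled by library sizes alone, in place of TMM, the split turned to 240 DEGs higher and 604 lower, with the median gene at -0.083. The count rests on few libraries. It was 140 without SP1, 39 without SP76 and 289 without H53, and with sequencing lane as a covariate it was 63, of which 49 were among the 716. Within lane 7, where SP1 stood against H51 and H53 with 1 residual degree of freedom, edgeR called 5 of 8868 genes, 2 of them among the 716, and 931 had an unadjusted p under 0.05.

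**Figure D1:**
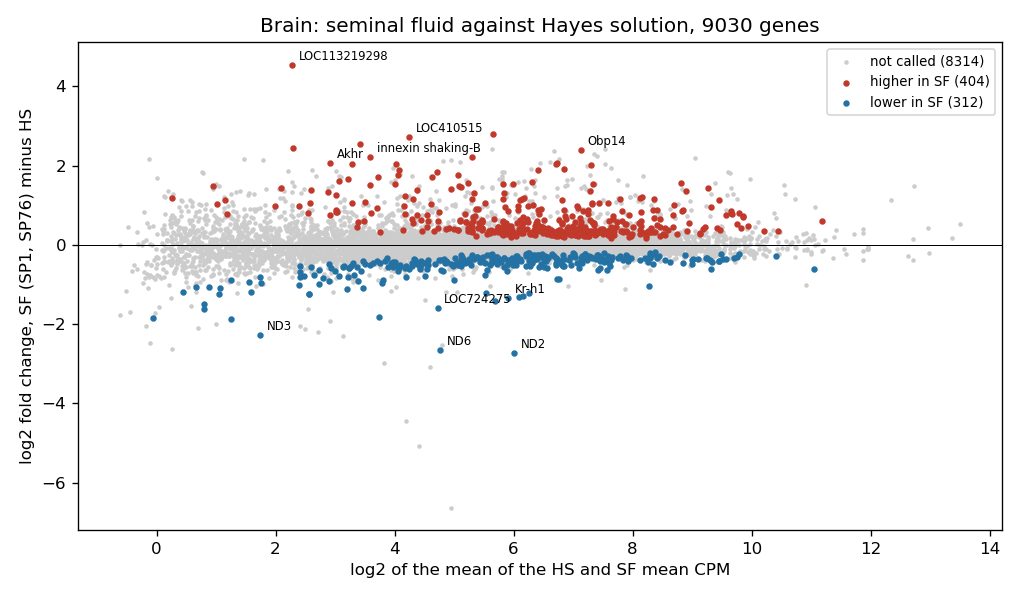
Log2 fold change between SF (SP1 and SP76) and HS brains against the log2 mean level, in CPM, of the 9030 genes tested. Points in red are the 404 DEGs higher and points in blue the 312 DEGs lower in SF brains; *LOC113219298* lies highest among the DEGs at 4.55 and *ND2* lowest at -2.74.

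With SP16 included as the third SF brain, no gene of the 8984 tested (0%) passed the threshold by edgeR, and 888 (9.88%) had an unadjusted p under 0.05. DESeq2 called 14 genes on the same 12 libraries, 8 higher and 6 lower, each of them also among the 716. Of these, SP16 lay below the HS range for *LOC413472* and within it for *LOC724250* and *LOC724353*. For the rest it lay beyond that range on the side of SP1 and SP76. SP16 itself lay within the HS range for 57.4% of the 404 higher DEGs, above it for 8.91% and below it for 33.7%. For the 312 lower DEGs it lay within the HS range in 56.7%, below it in 10.9% and above it in 32.4%. Over all genes tested, 61.8% of SP16 levels lay within the HS range, 19.1% above and 19.1% below. SP16 was thus on the side of SP1 and SP76 less often than over all genes, although these counts share the HS libraries with the DEG calls and were not tested.

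The genes with the smallest p-values included several of cell junctions and adhesion. Given with them are genes of the extracellular matrix, *LOC409722* and *LOC413021*, which the study names for brain. The grouping was made after their values were seen and was not counted as a list. *Innexin shaking-B* (*LOC413472*, chromosome 6 from 16708962 to 16731979) belongs to the family that forms the gap junctions of insects, and in *Drosophila* it forms electrical synapses. Its level was 3.79, 4.30, 4.97, 3.59 and 4.77 CPM in the HS brains H51, H53, H73, H74 and H75, with a mean of 4.28 ± 0.599 (SD, n = 5). It was 17.97 CPM in SP1 and 21.7 in SP76, several times every HS value, and 3.12 in SP16, below all of them. The log2 fold change without SP16 was 2.21 (standard error 0.18, adjusted p = 0.000764, edgeR). With SP16 included it was 1.72 (unadjusted p = 0.00194, adjusted p = 0.46, edgeR). *LOC413472* overlaps another annotated gene, as do *LOC107964400*, *LOC409722*, *LOC413021*, *Br-c*, *E74*, *GluCl*, *Syt1*, *Trxr-1*, *RpL35*, *Rps14*, *ND2* and *ATP6*. Of the genes described further below, so do *LOC408570*, *LOC100578939*, *LOC410585*, *LOC408959*, *LOC724353*, *LOC724885*, *LOC100577932*, *LOC724508*, *LOC113218623*, *LOC102654450* and *LOC113219424*. Reads over a shared stretch were left out by the counting, so these counts come from the rest of each gene, and the library kit did not mark strand.

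*Integrin beta-PS-like* (*LOC724950*, chromosome 1 from 19467724 to 19472728) and *integrin alpha-8-like* (*LOC107964400*, chromosome 5 from 10705434 to 10710031) encode subunits of the receptors by which cells hold to the extracellular matrix, and both rose. The beta subunit was at 17.5, 10.8, 17.1, 15.7 and 9.92 CPM in the 5 HS brains, 66.9 and 63.2 in SP1 and SP76 and 13.1 in SP16. *LOC724950* thus differed by a log2 fold change of 2.21 (standard error 0.21, adjusted p = 0.00115, edgeR). The alpha subunit was at 7.36, 8.18, 9.07, 8.08 and 8.76 CPM in the HS brains and 19.6 and 28.1 in SP1 and SP76. SP16, at 9.53 CPM, was above the HS range for *LOC107964400*, though closer to it than to the other SF brains. The log2 fold change of *LOC107964400* was 1.52 (standard error 0.15, adjusted p = 0.00115, edgeR).

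*Draper* (*LOC552479*, chromosome 15 from 2714683 to 2740552), in *Drosophila* the receptor by which glia engulf debris of neurons, was at 229.8, 227, 219, 216 and 222 CPM in the HS brains, a narrow range, and at 317 and 339 in SP1 and SP76. SP16 had 182 CPM, the lowest of the 8. Its log2 fold change of 0.56 (standard error 0.065, adjusted p = 0.00236, edgeR) was small but larger than the spread between HS brains. *Heparan sulfate proteoglycan core protein* (*LOC409722*, chromosome 8), a component of basement membranes, was at 152, 105, 159.8, 104 and 165 CPM in HS brains, 233 and 380.4 in SP1 and SP76 and 91.3 in SP16, and its log2 fold change was 1.16 (standard error 0.22, adjusted p = 0.016, edgeR). *Papilin* (*LOC413021*, chromosome 5), another protein of the extracellular matrix, changed in the opposite direction. It was at 502, 345, 448, 419 and 367 CPM in HS brains, 218 and 186 in SP1 and SP76 and 482 in SP16, with a log2 fold change of -1.04 (standard error 0.23, adjusted p = 0.0263, edgeR).

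**Figure D2:**
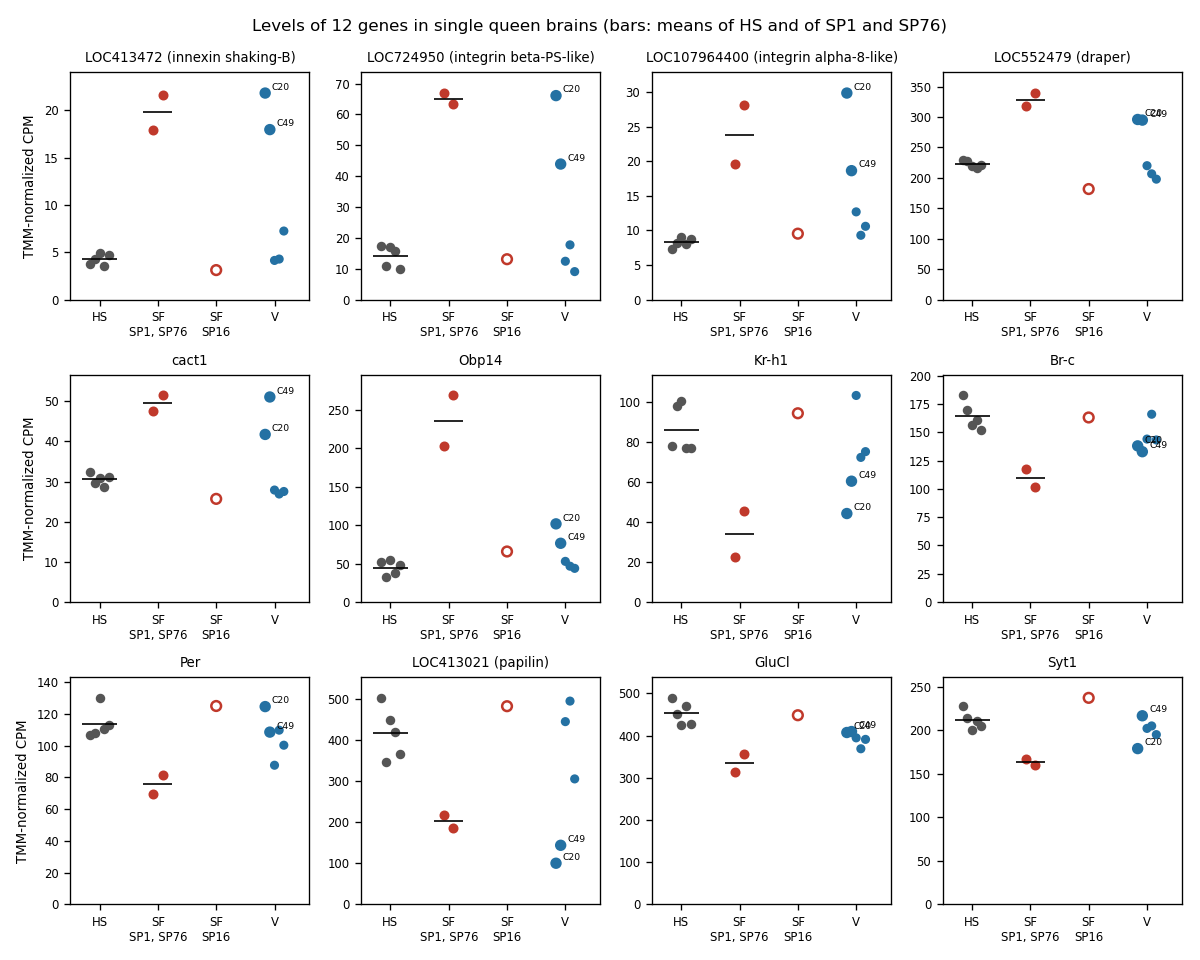
Levels of 12 genes in single brains, in TMM-normalized CPM on axes that start at 0, for HS (5 brains), SF (SP1 and SP76, filled red), SF (SP16, open red) and uninjected virgin queens (V, 5 brains, with C20 and C49 named). Bars are the means of HS and of SP1 and SP76. SP1 and SP76 lie outside the HS range for each gene, and SP16 lies on their side of it only for *integrin alpha-8-like* (9.53 CPM) and *Obp14* (65.6 CPM).

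Receptors and their signalling partners followed several courses. The receptor *Mth2-like* (*LOC113219298*, chromosome 16 from 719511 to 721073) belongs to the methuselah family of G-protein coupled receptors. It was nearly absent from HS brains, at 1.15, 0.0597, 0.174, 0.122 and 0.709 CPM, and reached 8.99 and 9.55 in SP1 and SP76 but 0.329 in SP16. Its log2 fold change of 4.55 (standard error 0.54, adjusted p = 0.00236, edgeR) was the largest among the DEGs. A *G(i) subunit alpha* (*LOC411704*, chromosome 1), which couples such receptors to the inhibition of cyclic AMP synthesis, was at 33.8, 29.1, 26.1, 27.05 and 28.6 CPM in HS brains, 53.6 and 54.2 in SP1 and SP76 and 25.2 in SP16, with a log2 fold change of 0.90 (standard error 0.11, adjusted p = 0.00236, edgeR).

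*Akhr* (chromosome 1), the receptor of the adipokinetic hormone that mobilizes stored energy in insects, was at 1.26, 1.85, 7.07, 1.88 and 2.64 CPM in HS brains, 9.07 and 15.3 in SP1 and SP76 and 1.26 in SP16. The HS brain H73 was the highest of its group and came close to SP1, and the log2 fold change was 2.06 (standard error 0.49, adjusted p = 0.0327, edgeR). *Sex peptide receptor* (*LOC724225*, chromosome 8), which in *Drosophila* receives a peptide of the seminal fluid, was low in all brains and showed no detectable difference. It was at 2.99, 3.41, 2.97, 3.40 and 2.96 CPM in HS brains, 3.59 and 3.14 in SP1 and SP76 and 2.79 in SP16, and its log2 fold change was 0.09 (standard error 0.16, adjusted p = 0.833, edgeR).

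Among 13 immune genes, 12 were tested and 1 was called, a share (8.33%) near the 7.93% of all genes. *Cact1* (*cact1*, chromosome 4 from 11569669 to 11576607), whose *Drosophila* counterpart cactus holds back the transcription factors of the Toll pathway, was at 32.4, 29.6, 30.97, 28.6 and 31.2 CPM in HS brains, 47.7 and 51.4 in SP1 and SP76 and 25.7 in SP16, below the HS range. Its log2 fold change was 0.70 (standard error 0.081, adjusted p = 0.00236, edgeR). The antimicrobial peptide gene *Def1* was at 239 to 1718 CPM in HS brains, 1361 and 3066 in SP1 and SP76 and 267 in SP16, and did not pass the threshold (adjusted p = 0.131, edgeR). The antimicrobial peptide gene *Apid1* was at 1621 to 3581 CPM in HS, 1717 and 865 in SP1 and SP76 and 248 in SP16 (adjusted p = 0.15, edgeR). The median log2 fold change of the 12 was 0.18, beside -0.0025 for all genes tested. The hemocyte genes *PPO* and *Tg* are in this list.

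Named genes of serine proteases and an inhibitor, of kinds that act in clotting and immune cascades of the hemolymph, changed in both directions. *Serine protease snake* (*LOC724250*, chromosome 15 from 3812648 to 3815066), in *Drosophila* a protease upstream of Toll, was at 2.18, 1.14, 1.83, 0.973 and 1.67 CPM in HS brains, 7.10 and 9.34 in SP1 and SP76 and 1.59 in SP16. *LOC724250* thus differed by a log2 fold change of 2.44 (standard error 0.31, adjusted p = 0.00284, edgeR). *Antitrypsin* (*LOC100578030*, chromosome 11), a serine protease inhibitor, was at 902, 559, 749, 635 and 631 CPM in HS brains, 1028 and 1277 in SP1 and SP76 and only 304 in SP16, with a log2 fold change of 0.73 (standard error 0.15, adjusted p = 0.0234, edgeR). *Proclotting enzyme* (*LOC726126*, chromosome 15) fell instead. It was at 126, 128, 154, 168 and 125 CPM in HS brains, 78.7 and 75.98 in SP1 and SP76 and 145 in SP16, with a log2 fold change of -0.86 (standard error 0.15, adjusted p = 0.0138, edgeR). The summed level of the fat body markers given above was also higher in SP1 and SP76 than in the HS brains, though none of the 4 tested was called.

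Of 12 hormone response and clock factors 11 were tested, 4 were called (36.4%) and all 4 fell, with a median log2 fold change of -0.22 over the 11. Of all genes tested, 3.46% fell. The list was drawn after a first look at the calls, so its share describes these genes and tests nothing. *Kr-h1* (chromosome 6 from 16501760 to 16510451), an early target of juvenile hormone, was at 77.9, 97.97, 101, 77.1 and 77.1 CPM in HS brains, 22.4 and 45.8 in SP1 and SP76 and 94.5 in SP16. SP1 and SP76 were both below the lowest HS value, and SP16 was inside the HS range. The log2 fold change of *Kr-h1* was -1.33 (standard error 0.23, adjusted p = 0.0131, edgeR). *Br-c* (chromosome 13 from 3298951 to 3357708), a transcription factor induced by ecdysone, was at 183, 169.8, 157, 161 and 152 CPM in HS brains, 117 and 102 in SP1 and SP76 and 163 in SP16, with a log2 fold change of -0.58 (standard error 0.08, adjusted p = 0.00444, edgeR). *E74* (chromosome 3), also induced by ecdysone, was at 99.8, 109.5, 109, 94.1 and 93.1 CPM in HS brains, 81.8 and 77.4 in SP1 and SP76 and 94.6 in SP16, with a log2 fold change of -0.34 (standard error 0.088, adjusted p = 0.0396, edgeR).

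*Usp*, a nuclear receptor that pairs with the ecdysone receptor, was at 114 to 138 CPM in HS, 89.4 and 103 in SP1 and SP76 and 126 in SP16, just outside the threshold (log2 fold change -0.37, adjusted p = 0.0503, edgeR). The ecdysone receptor gene *Ecr* itself was at 52.9 to 68.5 CPM in HS, 51.4 and 50.7 in SP1 and SP76 and 45.8 in SP16 (adjusted p = 0.349, edgeR). *Per* (chromosome 12 from 10032689 to 10051762), a core gene of the circadian clock, was at 106, 108, 130.00, 111 and 113 CPM in HS brains, 69.3 and 81.7 in SP1 and SP76 and 125 in SP16. SP16 was above all HS brains but H73, and the log2 fold change without it was -0.59 (standard error 0.088, adjusted p = 0.00733, edgeR). The clock gene *Cry2* was at 17.9 to 22.5 CPM in HS brains, 25.5 and 22.4 in SP1 and SP76 and 17.2 in SP16 (adjusted p = 0.261, edgeR). Queens were collected in the afternoon, and no hour is given for single queens.

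Genes of synaptic transmission mostly had log2 fold changes slightly below 0. The share called was 3.70% for receptors, 7.14% for synaptic proteins and 11.1% for transmitter synthesis, breakdown and uptake, against 7.93% of all genes. Each of these shares is 1 gene. Some of the neuronal and glial markers given above are also members of these lists, *Syt1* among them. The sums of these markers were below the HS range in SP1 and SP76, which is thus no separate observation. Their part in these values was not tested. Gene by gene, both brains lay below the HS range for 4 of the 6 neuronal and 0 of the 3 glial markers. Of 27 neurotransmitter receptors 1 was called, and 23 had a log2 fold change below 0, with a median of -0.16. The called receptor was *GluCl* (chromosome 14 from 5177026 to 5214539), a chloride channel opened by glutamate that inhibits neurons. It was at 489, 449.9, 425, 469.8 and 428 CPM in HS brains, 315 and 357 in SP1 and SP76 and 448 in SP16, with a log2 fold change of -0.43 (standard error 0.09, adjusted p = 0.0235, edgeR). Of 14 synaptic proteins and channels 1 was called, *Syt1* (chromosome 1 from 5110754 to 5135245), the calcium sensor of vesicle release. Its level was 228, 215, 199.97, 210.4 and 206 CPM in HS brains, 167 and 160.4 in SP1 and SP76 and 237 in SP16, the highest of the 8, and its log2 fold change was -0.37 (standard error 0.075, adjusted p = 0.0198, edgeR). The median log2 fold change of these 14 genes was -0.21, and 13 were below 0.

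Of 9 genes of transmitter synthesis, breakdown and uptake, 4 had a log2 fold change above 0 and 5 below. Only *AChE-2* (chromosome 8), an acetylcholinesterase, was called. It was at 805, 727, 721, 634 and 706 CPM in HS brains, 562 and 539.99 in SP1 and SP76 and 734 in SP16, with a log2 fold change of -0.38 (standard error 0.089, adjusted p = 0.0296, edgeR). The glial genes *GlnS* and *Eaat-2*, which recycle and take up glutamate, were not called (adjusted p = 0.446 and 0.401, edgeR). *GlnS* was at 3864 to 4347 CPM in HS, 3764 and 3903 in SP1 and SP76 and 2931 in SP16, and *Eaat-2* at 379.6 to 519, 417 and 403 and 399. Of 13 neuropeptide and peptide hormone receptor genes tested, *Akhr* rose and *crh-BP* (chromosome 8), whose mammalian counterpart binds corticotropin-releasing hormone, fell. The share called in that list was 15.4%, against 7.93% of all genes. *Crh-BP* (*crh-BP*) was at 55.3, 60.8, 55.8, 62.7 and 55.3 CPM in HS brains, 48.8 and 44.7 in SP1 and SP76 and 65.7 in SP16, with a log2 fold change of -0.31 (standard error 0.081, adjusted p = 0.0431, edgeR).

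Of the 13 protein-coding genes of the mitochondrial genome, which encodes subunits of the respiratory chain and of ATP synthase, 8 fell in SP1 and SP76. All 13 passed the filter on low counts, and all 13 had a log2 fold change below 0 (median -1.22). *ND2*, a subunit of complex I, was at 103, 57.9, 121, 168 and 110.5 CPM in HS brains, 15.7 and 17.7 in SP1 and SP76 and 59.1 in SP16. SP16 lay at the lower end of the HS range and at several times SP1, and the log2 fold change without SP16 was -2.74 (standard error 0.68, adjusted p = 0.0375, edgeR). *ND6* was at 47.1, 18.8, 46.2, 80.2 and 42.1 CPM in HS brains, 6.85 and 8.09 in SP1 and SP76 and 22.5 in SP16, with a log2 fold change of -2.65 (standard error 0.71, adjusted p = 0.0467, edgeR). *ND3* was at 5.17, 2.87, 4.62, 8.75 and 6.25 CPM in HS brains, 0.941 and 1.32 in SP1 and SP76 and 3.34 in SP16, with a log2 fold change of -2.27 (standard error 0.59, adjusted p = 0.0417, edgeR).

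*ATP6*, a subunit of ATP synthase, was at 17.8, 17.7, 21.03, 28.6 and 18.7 CPM in HS brains, 5.39 and 6.41 in SP1 and SP76 and 16.98 in SP16, the only called mitochondrial gene for which SP16 too was below all HS brains. Its log2 fold change was -1.81 (standard error 0.42, adjusted p = 0.0303, edgeR). *COX3*, of cytochrome c oxidase, was at 51.95, 64.6, 86.99, 98.8 and 74.3 CPM in HS, 27.8 and 28.8 in SP1 and SP76 and 60.9 in SP16, with a log2 fold change of -1.41 (standard error 0.31, adjusted p = 0.0251, edgeR). The complex I genes *ND4*, *ND4L* and *ND5* had log2 fold changes of -1.31, -0.98 and -1.22 (adjusted p = 0.025, 0.033 and 0.0439, edgeR). In SP16 they were at 90.3, 6.90 and 156 CPM, each within the HS range.

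The mitochondrial genes with the most reads did not pass the test. *COX1* was at 7186, 8829, 8593, 10075 and 8607 CPM in HS, 7131 and 7939 in SP1 and SP76 and 10122 in SP16 (log2 fold change -0.20, adjusted p = 0.388, edgeR). *COX2* and *CYTB* had log2 fold changes of -0.37 and -0.43 (adjusted p = 0.198 and 0.164, edgeR), and SP16 had 1059 and 1162 CPM of them. Of 9 nuclear genes of oxidative phosphorylation, which work in the same complexes, 0 were called, and their median log2 fold change was 0.076. *Ndufs1*, of complex I, was at 345 to 378 CPM in HS, 378 and 382 in SP1 and SP76 and 364 in SP16 (adjusted p = 0.375, edgeR). *ND1* and *ATP8* were not called either, with log2 fold changes of -0.24 and -1.01 and with 52.4 and 1.53 CPM in SP16. The mitochondrial calls rest on both SF brains, since none was left without SP1 or without SP76, although the median log2 fold change of the 13 stayed at -1.24 and -1.14. They numbered 3 without H75, 4 without H74 and 5 without H53, and 1 with lane or with the share of reads not aligned as a covariate, where the medians were -1.17 and -1.01. Of all genes tested, 3.46% were lower. This list, too, was drawn after a first look at the calls.

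**Figure D3:**
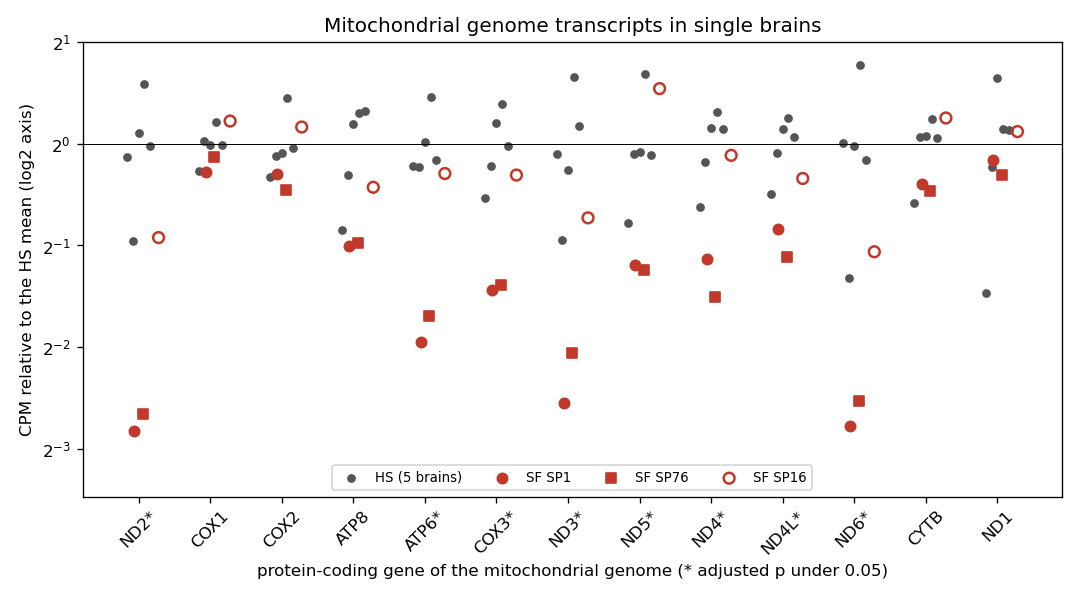
CPM of the 13 protein-coding genes of the mitochondrial genome, in genome order, in each HS brain (grey), SP1 (red circle), SP76 (red square) and SP16 (open red circle), relative to the HS mean on a log2 axis. The 8 genes marked with an asterisk were called. SP1 and SP76 lie together and farthest below the HS brains for *ND2*, *ND3* and *ND6*. Both lie below the HS range for 9 of the 13 genes, and *COX1* and *CYTB* are among those that overlap with the HS brains.

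Of 7 genes of the cytosolic ribosome carrying a ribosomal symbol, 4 were higher in SP1 and SP76, against 4.47% of all genes. The median log2 fold change over the 7 was 0.30, and this list was also drawn after a first look at the calls. *RpL32* was at 139, 119, 130.2, 149 and 129.8 CPM in HS brains, 169 and 169 in SP1 and SP76 and 136 in SP16, with a log2 fold change of 0.34 (standard error 0.079, adjusted p = 0.0306, edgeR). *RpLP1* was at 295, 242, 271, 306 and 267 CPM in HS brains, 345 and 350.3 in SP1 and SP76 and 281 in SP16, with a log2 fold change of 0.33 (standard error 0.084, adjusted p = 0.0387, edgeR). For *RpL35* and *Rps14* the log2 fold changes were 0.30 and 0.31 (adjusted p = 0.0292 and 0.0367, edgeR), with 124 and 158 CPM in SP16, against HS ranges of 127 to 151 and 153 to 183. None of the 4 was called when libraries were scaled by their sizes alone in place of TMM, and their directions did not change. Of 11 genes of translation and chaperones 0 were called, with a median of 0.13. *Trxr-1*, a thioredoxin reductase, was the 1 of 9 redox genes called, at 244, 187, 204, 212 and 219 CPM in HS, 268 and 262 in SP1 and SP76 and 183 in SP16 (log2 fold change 0.32, adjusted p = 0.0468, edgeR), and it too was not called under that scaling. The share of redox genes called was 11.1%, against 7.93% of all genes.

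Secreted and storage proteins showed wide spreads. *Obp14* (chromosome 15 from 1924191 to 1926002), of the odorant binding proteins that carry small hydrophobic molecules, was at 51.4, 32.4, 54.5, 37.3 and 48.3 CPM in HS brains and 203 and 268 in SP1 and SP76. SP16, at 65.6 CPM, was also above every HS brain. The log2 fold change was 2.40 (standard error 0.42, adjusted p = 0.0131, edgeR) without SP16 and 2.0 with it (unadjusted p = 0.0012, adjusted p = 0.445, edgeR). *Obp14* was the 1 gene called of 14 odorant binding and chemosensory genes tested, whose median log2 fold change was 1.29. That share, 7.14%, was near the 7.93% of all genes, and the median was 0.34 without SP76, 0.63 with lane as a covariate and 0.29 over the members with 20 reads in every library. *CSP1*, a chemosensory protein gene, was at 9.08 to 89.5 CPM in HS, 237 and 309 in SP1 and SP76 and 2.68 in SP16 without passing the test (adjusted p = 0.184, edgeR).

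*Mrjp7*, of the major royal jelly protein family, was at 18.6, 13.3, 16.8, 16.4 and 22.2 CPM in HS brains, 26.3 and 32.6 in SP1 and SP76 and 17.6 in SP16, with a log2 fold change of 0.76 (standard error 0.16, adjusted p = 0.0222, edgeR). It was the 1 gene called of 8 tested of its family and the related yellow proteins (12.5%, against 7.93% of all genes). *Vg*, the yolk protein vitellogenin, was at 1117 to 8885 CPM in HS, 10442 and 9588 in SP1 and SP76 and 4245 in SP16 (log2 fold change 1.49, adjusted p = 0.161, edgeR). None of 6 storage and yolk protein genes was called (DESeq2 called 2), while 3 were without H73 and 1 without SP1. *TpnCIIa*, a troponin C, was at 3.33, 2.33, 4.10, 2.74 and 4.44 CPM in HS brains, 6.93 and 10.5 in SP1 and SP76 and 3.12 in SP16 (log2 fold change 1.37, adjusted p = 0.0174, edgeR). It was the 1 of 5 troponins called (20%, against 7.93% of all genes), and none of 15 cuticle protein genes tested was.

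**Figure D4:**
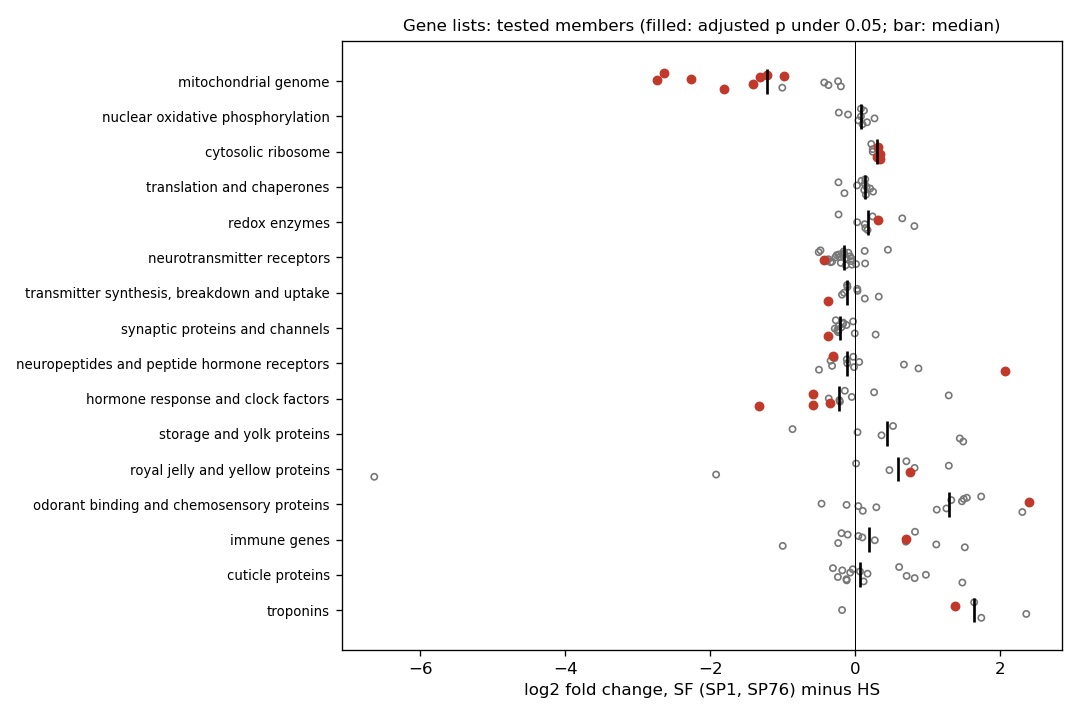
Log2 fold change between SF (SP1 and SP76) and HS brains of each tested member of 16 gene lists. Filled red points passed an adjusted p of 0.05, open points did not, and black bars are medians, the lowest being -1.22 for the mitochondrial genome and the highest 1.64 for the troponins, which was -0.028 without SP76.

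Of 22 microRNA genes tested, 2 neighbouring ones rose, a share (9.09%) near the 7.93% of all genes. *Mir87-1* (chromosome 13 from 9609758 to 9609857) was at 4.83, 2.57, 7.42, 2.61 and 3.74 CPM in HS brains, 8.99 and 11.9 in SP1 and SP76 and 2.52 in SP16, with a log2 fold change of 1.33 (standard error 0.33, adjusted p = 0.0352, edgeR). Its neighbour *Mir87-2* (chromosome 13 from 9610356 to 9610455) was at 1.38, 0.777, 1.66, 0.486 and 0.902 CPM in HS brains, 3.59 and 2.02 in SP1 and SP76 and 0.657 in SP16, with a log2 fold change of 1.48 (standard error 0.39, adjusted p = 0.0439, edgeR). The libraries were not small RNA libraries, so these counts are of reads over the genes and do not measure the mature microRNAs. Neither gene was called with lane or the share of reads not aligned as a covariate, or without any of SP1, SP76, H53, H74 and H75.

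Of 489 long non-coding RNA genes tested, 8 were higher and 36 lower, in all 9.0% against 7.93% of all genes, with a median log2 fold change of -0.11, and 3 to 41 were called with 1 brain left out. *LOC102656171* (chromosome 6) was at 155, 144, 147, 151 and 141 CPM in HS brains, 101 and 105 in SP1 and SP76 and 168 in SP16, with a log2 fold change of -0.51 (standard error 0.063, adjusted p = 0.00236, edgeR). Its span overlaps 2 other genes, and reads over the shared stretches were left out by the counting. *LOC113218842* (chromosome 1), which overlaps none, was at 46.8, 49.05, 44.4, 46.4 and 43.02 CPM in HS brains, 30.9 and 33.4 in SP1 and SP76 and 46.3 in SP16, with a log2 fold change of -0.51 (standard error 0.07, adjusted p = 0.00444, edgeR). *LOC100576841* (chromosome 7) had the largest increase of them, from 31.1, 15.7, 102, 19.4 and 37.2 CPM in HS brains to 144 and 199 in SP1 and SP76, against 20.4 in SP16. H73 was the highest HS brain of *LOC100576841*, and the log2 fold change was 2.07 (standard error 0.57, adjusted p = 0.0492, edgeR). *LOC102655893* (chromosome 15), which also overlaps another gene, was at 3.79, 2.81, 4.10, 3.28 and 3.74 CPM in HS brains, 6.16 and 7.81 in SP1 and SP76 and 5.15 in SP16, so that all 3 SF brains were above the HS range, and its log2 fold change was 0.99 (standard error 0.22, adjusted p = 0.026, edgeR). *LOC107966045*, *LOC102656852* and *LOC102656130* also rose, with log2 fold changes of 1.06, 1.07 and 0.80, and SP16 had 2.03, 4.98 and 432 CPM against HS ranges of 3.23 to 4.83, 5.52 to 9.07 and 432 to 767. *LOC113219424* and *LOC113219186* fell by the most among the non-coding genes, with log2 fold changes of -1.86 and -1.85, while SP16, with 6.90 and 3.18 CPM, was above their HS ranges of 2.51 to 5.29 and 0.690 to 2.43. The small decreases of *LOC100577422* (-0.58) and *LOC102654450* (-0.36) were also not shared by SP16, which had 23.9 and 78.7 CPM against 19.1 to 22.1 and 71.98 to 80.2 in HS brains.

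Transporters were among the remaining named genes. An ATP-binding cassette transporter gene of the G subfamily (*LOC413844*, chromosome 8), whose mammalian counterparts move sterols, was at 4.14, 2.99, 4.71, 2.25 and 6.50 CPM in HS brains, 8.39 and 16.7 in SP1 and SP76 and 2.85 in SP16, with a log2 fold change of 1.62 (standard error 0.34, adjusted p = 0.0239, edgeR). *Monocarboxylate transporter 7* (*LOC408272*, chromosome 10) fell from a narrow range of 58.2 to 62.6 CPM in HS brains to 44.4 and 44.9 in SP1 and SP76, while SP16 had 62.9. The log2 fold change of *LOC408272* was -0.44 (standard error 0.059, adjusted p = 0.00432, edgeR). A zinc finger protein gene (*LOC724885*) was at 52.1 to 62.99 CPM in HS, 38.1 and 42.8 in SP1 and SP76 and 61.9 in SP16 (log2 fold change -0.50, adjusted p = 0.026, edgeR). *Inactive tyrosine-protein kinase 7* (*LOC410685*) was at 20.7 to 25.2 CPM in HS, 15.6 and 14.2 in SP1 and SP76 and 21.3 in SP16 (log2 fold change -0.61, adjusted p = 0.0202, edgeR). A *calponin homology domain-containing protein* gene (*LOC100577497*) was at 6.57 to 9.89 CPM in HS, 4.54 and 4.74 in SP1 and SP76 and 7.01 in SP16 (log2 fold change -0.76, adjusted p = 0.032, edgeR). A gene annotated for a prion-like domain (*LOC724353*) was at 5.65 to 11.5 CPM in HS, 26.9 and 24.6 in SP1 and SP76 and 8.60 in SP16 (log2 fold change 1.76, adjusted p = 0.00236, edgeR).

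Several genes with the smallest p-values or largest changes have no described function in the annotation used. Among those that rose, *LOC100578939* (chromosome 11) was at 56.2 to 64.5 CPM in HS, 106 and 115 in SP1 and SP76 and 49.1 in SP16, with a log2 fold change of 0.88 (standard error 0.077, adjusted p = 0.000764, edgeR). *LOC410585* (chromosome 15) was at 93.7 to 123 CPM in HS, 206 and 222 in SP1 and SP76 and 74.7 in SP16, with a log2 fold change of 1.04 (standard error 0.11, adjusted p = 0.00148, edgeR). *LOC551572* (chromosome 8) was at 39.5 to 50.3 CPM in HS, 92.3 and 104 in SP1 and SP76 and 38.8 in SP16, with a log2 fold change of 1.16 (standard error 0.13, adjusted p = 0.00236, edgeR). In all 3 genes SP16 was below every HS brain, on the far side from SP1 and SP76. *LOC410515* had 3.28 to 7.85 CPM in HS, 44.7 and 21.2 in SP1 and SP76 and 4.22 in SP16 (log2 fold change 2.72, adjusted p = 0.00601, edgeR), and *LOC408959* had 2.21 to 5.86, 15.1 and 21.3 and 2.08 CPM (log2 fold change 2.55, adjusted p = 0.00379, edgeR). For *LOC408570*, *LOC102653894*, *LOC113219268* and *LOC724580* the log2 fold changes were 1.30, 1.12, 1.88 and 1.47, and SP16 had 21.6, 37.8, 5.31 and 18.5 CPM, against HS ranges of 21.4 to 26.00, 35.4 to 53.1, 5.97 to 8.18 and 12.8 to 29.8.

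Among those that fell, *LOC724275* (chromosome 2) was at 41.8, 37.04, 55.8, 31.3 and 32.8 CPM in HS brains, 11.98 and 14.1 in SP1 and SP76 and 39.7 in SP16, with a log2 fold change of -1.60 (standard error 0.21, adjusted p = 0.00414, edgeR). *LOC100577932* (chromosome 3) was at 41.4, 35.9, 45.2, 42.2 and 42.96 CPM in HS brains, 23.2 and 21.7 in SP1 and SP76 and 45.3 in SP16, with a log2 fold change of -0.89 (standard error 0.10, adjusted p = 0.00236, edgeR). *LOC408660* (chromosome 2) had the smallest p-value of all DEGs once SP16 was included. It was at 143, 151, 151, 122 and 112 CPM in HS brains, 72.1 and 78.4 in SP1 and SP76 and 49.2 in SP16, the lowest of the 8. The log2 fold change of *LOC408660* was -0.85 (standard error 0.16, adjusted p = 0.0146, edgeR) without SP16 and -1.03 with it (unadjusted p = 5.85e-05, adjusted p = 0.303, edgeR). *LOC724508* was at 81.8 to 94.8 CPM in HS, 66.8 and 64.5 in SP1 and SP76 and 76.3 in SP16, again with all 3 SF brains below the HS range (log2 fold change -0.41, adjusted p = 0.00654, edgeR). *LOC113218623* and *LOC107964405* had log2 fold changes of -0.90 and -1.62, with 10.7 and 5.42 CPM in SP16 against HS ranges of 8.99 to 10.7 and 1.49 to 3.46.

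Of the 23 genes that the study named for brains, 12 rose, 10 fell and 1, the *sex peptide receptor*, was not called. The study chose most of them on these libraries, so that this count is no independent evidence of their direction. The 716 DEGs included 70 for which SP16 also lay beyond the HS range on the side of SP1 and SP76, 36 of the higher (8.91%) and 34 of the lower ones (10.9%). Of all genes tested with SP1 and SP76 both above the HS range, SP16 was above it too for 187 of 1378 (13.6%), and of those with both below it, for 231 of 1408 (16.4%). Besides those given above, they included *LOC551290*, *LOC409966*, *LOC410938* and *LOC551434*, chosen after their values were seen because their p-values with SP16 were among the smallest. *LOC551290* was at 14.2 to 16.4 CPM in HS, 27.6 and 20.6 in SP1 and SP76 and 22.2 in SP16 (log2 fold change 0.61 with SP16, adjusted p = 0.303, edgeR). *LOC409966* was at 175 to 226 CPM in HS, 130.2 and 138 in SP1 and SP76 and 103 in SP16 (log2 fold change -0.75 with SP16, adjusted p = 0.303, edgeR). *LOC410938* was at 33.1 to 35.5 CPM in HS, 44.2 and 43.3 in SP1 and SP76 and 40.1 in SP16, and *selenium-binding protein 1-like* (*LOC551434*) at 120.4 to 129, 168 and 139 and 156 CPM. With SP16 included none of these 4 was called by edgeR, while DESeq2 called *LOC551290*, *LOC409966* and *LOC551434*.

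By leaving out 1 of the 7 brains at a time, 24 DEGs were called in every fit, 19 higher and 5 lower. Of the genes described here they were *LOC413472*, *LOC724950*, *LOC107964400*, *LOC552479*, *LOC411704*, *LOC113219298*, *cact1*, *LOC724353*, *LOC100578939*, *LOC410585*, *LOC551572*, *LOC408570*, *LOC102653894* and *LOC113219268* among the higher, and *Kr-h1*, *LOC724275*, *LOC100577932*, *LOC102656171* and *LOC113218842* among the lower. The other DEGs named here each lost their call without at least 1 of these libraries, most often without SP76.

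The same genes were examined in the brains of uninjected virgin queens, which had received neither fluid. The share of reads without an alignment was 34.3% in C20 and 25.1% in C49, and C64, C68 and C77 had 4.24% to 5.37%. For 227 of the 404 higher DEGs (56.2%), C20 and C49 both lay above the HS range, against 11.6% of all genes tested. C64, C68 and C77 all did so for 21 (5.2%), against 2.61% of all genes. For the 312 lower DEGs the corresponding counts below the HS range were 90 (28.8%, against 11.6%) and 22 (7.05%, against 4.03%). These counts use the HS range that also defined the DEGs, so they describe where the virgin brains lay and test nothing.

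*Innexin shaking-B* (*LOC413472*) was at 21.8, 17.97, 4.14, 4.29 and 7.25 CPM in C20, C49, C64, C68 and C77, so that C20 and C49 were at the level of SP1 and SP76 without any injection. *Integrin beta-PS-like* (*LOC724950*) was at 66.1, 43.9, 12.4, 17.7 and 9.07 CPM in the same order and *LOC113219298* at 17.8, 13.96, 0.101, 0.226 and 0.174. *Papilin* (*LOC413021*), lower in SP1 and SP76, was lower still in C20 and C49, with 100.1, 144, 444, 494 and 305 CPM. *Serine protease snake* (*LOC724250*), at 3.55, 4.67, 2.37, 1.31 and 1.39 CPM, and *Obp14*, at 102, 76.3, 52.8, 46.5 and 43.7 CPM, had C20 and C49 above every HS brain and every other virgin brain but below SP1. Other DEGs did not share this order. *Per* was at 124, 108, 87.6, 109.7 and 100.2 CPM in virgin brains, above SP1 and SP76 in all 5. The mitochondrial *ND2* was at 114, 71.4, 94.7, 143 and 48.02 CPM and *ATP6* at 19.1, 15.5, 23.2, 28.6 and 15.1, also above SP1 and SP76 in all 5. *Mrjp7* was at 20.1, 18.7, 19.1, 18.3 and 19.4 CPM, within the HS range in each.

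The median log2 ratio of the 404 higher DEGs to their HS mean was 0.40 in SP1 and 0.48 in SP76 by construction, -0.097 in SP16, 0.26 in C20 and 0.21 in C49, and -0.0037 to 0.0042 in C64, C68 and C77. The HS brains lie near 0 by construction. The share not aligned was 38.9% and 39.7% in SP1 and SP76, above 4 of the 5 HS brains. With that share as a covariate 351 DEGs remained, 344 of them among the 716, and its part in the differences was not otherwise tested.

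**Figure D5:**
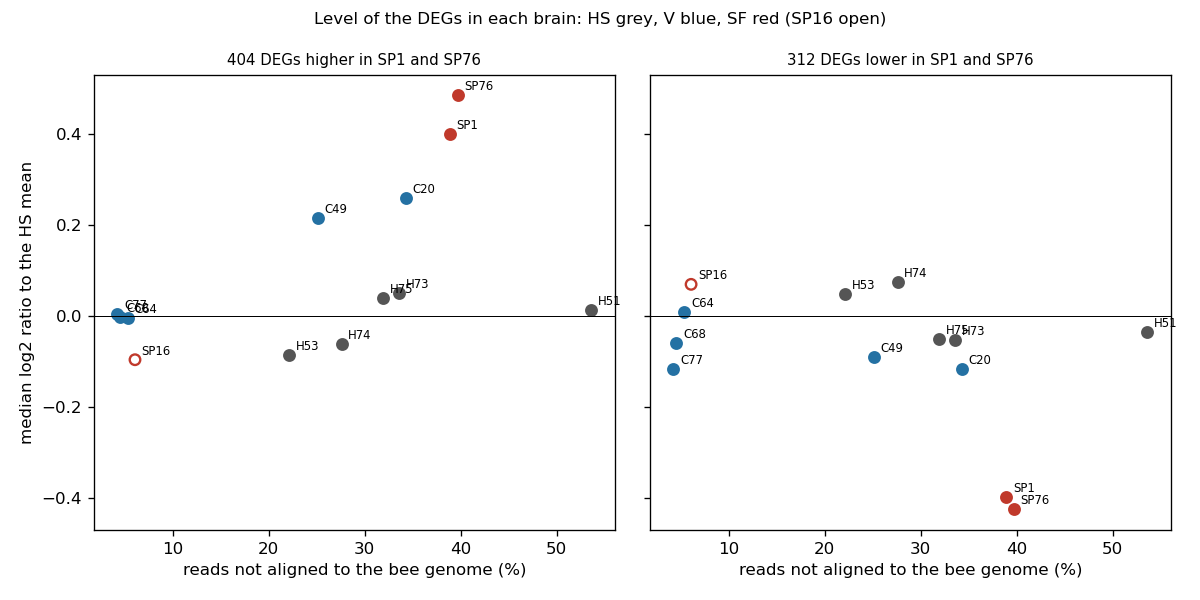
Median log2 ratio to the HS mean of the 404 DEGs higher (left) and the 312 DEGs lower (right) in SP1 and SP76, in each HS (grey), SF (red, SP16 open) and V brain (blue), against the percentage of reads without an alignment. C20 and C49 lie at 0.26 and 0.21 on the left, between the HS brains and SP1 and SP76, while SP16 lies at -0.097. The HS brains lie near 0 by construction.

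Fat bodies of the same treatments were used to ask whether the brain differences were shared. In fat bodies 136 of 8201 genes (1.66%) differed between SF and HS queens (5 libraries each), 69 of them higher (0.841%) and 67 lower (0.817%). Scaled by library sizes alone, 39 were higher and 152 lower. Leaving out 1 fat body moved the count to 377 without H74 and to 41 to 82 without H51, H53, H73, H75, SP1, SP16 or SP79. Of the 404 higher brain DEGs 403 were tested in fat bodies, where 25 were also higher and 0 lower. Of the 312 lower brain DEGs 268 were tested, and 3 were also lower and 0 higher. The shared genes were 28 of the 716 brain DEGs and 28 of the 136 fat body DEGs. They included *integrin alpha-8-like* (*LOC107964400*), with a log2 fold change of 0.83 in fat bodies (adjusted p = 0.0414, edgeR), and *serine protease snake* (*LOC724250*) with 2.05 (adjusted p = 0.00993, edgeR). *Obp14* was higher by 1.87 in fat bodies (adjusted p = 0.000674, edgeR) and *Mir87-1* by 0.93 (adjusted p = 0.00699, edgeR). Of the mitochondrial genes none was called in fat bodies, where 12 of the 13 were tested with a median log2 fold change of 0.15. The brain of SP16 was left out, while its fat body was among the 5.

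The difference between tissues was tested as an interaction, and 35 of 9102 genes (0.385%) passed, 25 with the higher change in brains (0.275%) and 10 with the lower (0.11%). Among them were 13 of the higher and 2 of the lower brain DEGs. For *innexin shaking-B* (*LOC413472*) the change was 2.21 in brains and 0.36 in fat bodies, a difference of 1.84 in the interaction model (adjusted p = 0.00128, edgeR). *LOC551572* rose by 1.16 in brains and had -0.26 in fat bodies, with a difference of 1.41 (adjusted p = 3.33e-05, edgeR). The difference was 3.76 for *LOC113219298* (adjusted p = 0.0134, edgeR) and 1.75 for *LOC113219268* (adjusted p = 0.0134, edgeR). For *ND2* it was -2.96 and did not pass (adjusted p = 0.102, edgeR). The adjusted p-values above come from a fit that did not pair the tissues by queen. With the queen as a block, in 14 libraries from queens sampled for both tissues, 8 genes passed, 7 of them among the 35. In the same libraries without the block 22 passed. Leaving out 1 brain gave 2 genes without SP76, 22 without H53 or H74, 63 without H75 and 135 without H73.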

How the data were processed

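RNA was extracted from single queen brains and fat bodies and sequenced as 100-nt single-end reads from libraries whose kit does not mark strand. Per the labels and the study's methods, the authors trimmed reads with cutadapt (version 1.8.3), aligned them to the Amel_HAv3.1 assembly with HISAT2 (2.1.0) and counted reads per gene with HTSeq (0.9.1). The deposited counts are raw, cover introns as well as exons, and leave out reads over more than 1 gene. The rows that name no gene were set aside: in the 8 brains, ambiguous reads were 3.92% to 6.67% and reads outside genes 4.19% to 9.48%.

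Counts were tested in R (4.3.3) with edgeR's quasi-likelihood test (4.0.16), TMM normalization and a filter (filterByExpr, minimum count 20), on 11 brains (5 HS, SP1, SP76 and the 4 SE brains the study retained). P-values were adjusted over all genes tested by the Benjamini-Hochberg method, and an adjusted p under 0.05 is called a DEG. Standard errors are the size of the log2 fold change over the square root of the F statistic of that test. They thus include the spread between libraries. CPM values were normalized over all 18 brains. Fat bodies were fitted alike, and the tissue difference as an interaction. Libraries are single queens, and no pair of brains within the HS or the SF group agreed within sampling noise. Replicate numbers name queens, so brain and fat body of a queen pair by design. The alternatives were DESeq2 (1.42.0), limma (3.58.1), other scalings and filters, other sets of libraries, lane or the share of reads not aligned as a covariate, a queen block, and leaving out each library. The share not aligned with SP16 included, the unblocked fit of 14 libraries and the fit within lane 7 were added after seeing the data.

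The named genes are the 10 higher and 10 lower DEGs with the smallest p, the 8 of each direction with the largest change and no overlap with HS brains, up to 4 DEGs of each direction per list, and the genes the study names. Other members of lists were picked as examples after their values were seen. The comparison, the lists and the tests were chosen with earlier results of these data known. The lists were drawn from gene symbols after a first look at the calls, since the deposited table gives no descriptions. They hold only genes whose symbol names them. The share called in a list, set beside that of all genes, is therefore a description and no test. Symbols were matched for all 12332 genes, with positions on Amel_HAv3.1. The tests were checked on simulated counts. No sequences were used here.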

Additional observations from a re-analysis of the deposited data

Results flagged for a closer look

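Among groups of 4 to 10 samples, 4 of 73 had a brain far from the others, where chance gives about 1 in 20. In HS brains, H51 had 5.86 CPM of *LOC408959* against 2.21 to 2.90 in the others, still below SP1 and SP76 (15.1 and 21.3). H73 had 102.2 CPM of the non-coding *LOC100576841* against 15.7 to 37.2, 7.07 CPM of *Akhr* against 1.26 to 2.64, and 130.0 CPM of *Per* against 106.3 to 112.8. For *LOC100576841* and *Akhr* H73 leaned toward SP1 and SP76, and for *Per* away from them.

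The change between SF and HS queens differed between brain and fat body, by the interaction test, for 4 of the named genes. That test did not pair the tissues by queen. With the queen as a block 8 genes passed in all, 7 of them among the 35 of the unpaired test. The log2 difference, brain minus fat body, was 1.84 for *innexin shaking-B* (*LOC413472*), 1.41 for *LOC551572*, 3.76 for *LOC113219298* and 1.75 for *LOC113219268*, and each was higher in the brain. The fat bodies included SP16, and the brains did not.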

How the results depend on the processing

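The 716 brain DEGs became 1180 with DESeq2, 276 with only the 7 libraries compared, 5 within lane 7, 63 with lane and 351 with the share not aligned as a covariate, and 0 with SP16 added, with SP16 and the SE brain S83 added, or with all 18 brains. Leaving out 1 library gave 39 to 756. With library sizes alone 240 were higher and 604 lower. With SP16 included, DESeq2 called 14 genes, and leaving out 1 library gave 0 to 716, the last without SP16. The share not aligned as a covariate gave 10 with SP16 included, all 10 higher and among the 716. For all 10, SP16 itself lay within or below the HS range. SP16 had the lowest share not aligned in that fit, so these calls need not hold for SP16. The 136 fat body DEGs became 345 with DESeq2, 39 higher and 152 lower with library sizes alone, and 41 to 377 with 1 library left out. The 35 tissue differences became 239 with DESeq2, 10 with the brain of SP16 added and 2 to 135 with 1 brain left out. The pairing of tissues by queen, as a replicate block, gave 8 in 14 libraries, against 22 without the block, and no other comparison could be paired, since no queen received both fluids. The *sex peptide receptor* (*LOC724225*) was the named gene whose direction turned, at -0.00846 without SP1 and 0.19 without SP76, neither called. Of the 70 named DEGs, DESeq2 kept all 70, library sizes alone 65, the share not aligned 50, the 7 libraries 49, the fit with virgin brains 45 and lane 16, while 31 were kept without SP1, 22 without SP76 and 0 with SP16. The causes of these shifts were not tested. With 2 SF brains in the comparison the spread is estimated mostly from HS and SE brains, and the fit with lane as a covariate separates lane from treatment outside lane 7 through the SE brains alone. H73, the only fitted brain of lane 3, adds nothing to the comparison in that fit.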
